A study of Penicillium oxalicum with 6 samples.

Results

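The 6 genes described here encode transcription factors (TFs) that are linked to cellulase production in *Penicillium oxalicum*, a soil fungus that secretes plant-polysaccharide-degrading enzymes. They were chosen by gene identifier, 6 of the 9834 genes in the files: *PoxCxrB* (*POX04420*), *PoxClrB* (*POX01960*), *PoxClrC* (*POX00972*), *POX01118*, *PoxRfxA* (*POX08664*) and *PoxPacC* (*POX02768*). The study names 5 of them among its differentially expressed TF genes from these same libraries, so the strain difference of those 5 is given as a description and not as a test. *PoxClrC* is not in that list, and the study named it among the genes for RT-qPCR.

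Messenger RNA of 2 strains was sequenced, with 3 libraries each, labelled as replicates F, S and T. Where 3 values of a strain are listed, they stand in that order. The control strain Δ*PoxKu70* was derived from the wild-type HP7-1 by replacement of the *Ku70* homologue with a hygromycin resistance gene, and the mutant Δ*PoxMKK1* carries that same replacement together with replacement of *PoxMKK1* (*POX07948*) by a G418 resistance gene. Mycelia of both strains were grown on glucose and then kept for 24 h at 28 °C in medium with 2% Avicel, a microcrystalline cellulose. The number of independent transformants behind the 3 mutant libraries is not given in the sources used here.

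PoxMKK1 is the orthologue of yeast Ste7, the middle kinase of a mitogen-activated protein kinase cascade that carries outside signals to the nucleus. In filamentous fungi, cellulase genes are switched on when cellulose breakdown products are sensed, and this needs dedicated activators. ClrB, whose *Neurospora* counterpart is CLR-2, is the best known of them. Other TFs tune the response to pH, development and carbon source.

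The libraries held between 13687087 and 14042791 expected counts, which are estimated reads per gene. *PoxMKK1* itself had an FPKM, the number of fragments relative to transcript length and library size, of 0.08, 0.04 and 0.00 in Δ*PoxMKK1* and of 27.4, 25.0 and 32.3 in Δ*PoxKu70*, so the libraries of the 2 strains differed in this gene as labelled. *POX01583*, the *Ku70* homologue, still had an FPKM of 55.4 to 81.4 over the 6 libraries, whereas the methods give it as replaced in both strains. Pearson's r of log2(FPKM + 0.5) across genes was 0.977 to 0.991 between libraries of a strain and 0.883 to 0.917 between strains.

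Deletion of *PoxMKK1* went with lower transcript levels of 4 of the 6 TF genes and higher levels of the other two, on the mean FPKM of 3 libraries. *PoxCxrB*, *PoxClrB* and *POX01118* were lower in Δ*PoxMKK1* without overlap between the strains, *PoxRfxA* and *PoxPacC* were higher without overlap, and *PoxClrC* overlapped. Such separation was common in these libraries, with 59.0% of the 8749 tested genes not overlapping, 23.6% lower and 35.3% higher in Δ*PoxMKK1*. A gene was called where edgeR's quasi-likelihood test over all genes gave an adjusted p under 0.05 and the log2 fold change was 1 or more in size. This took in 4 of the 6 genes, 3 lower and 1 higher, where 19.8% of all tested genes were called. On the adjusted p alone 5 of the 6 passed, where 46.2% of all tested genes did. Since 5 of the 6 were picked on this same contrast, nothing is read from these shares. In a bulk culture, fewer hyphae that express a gene and less RNA per hypha cannot be told apart.

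**Figure D1:**
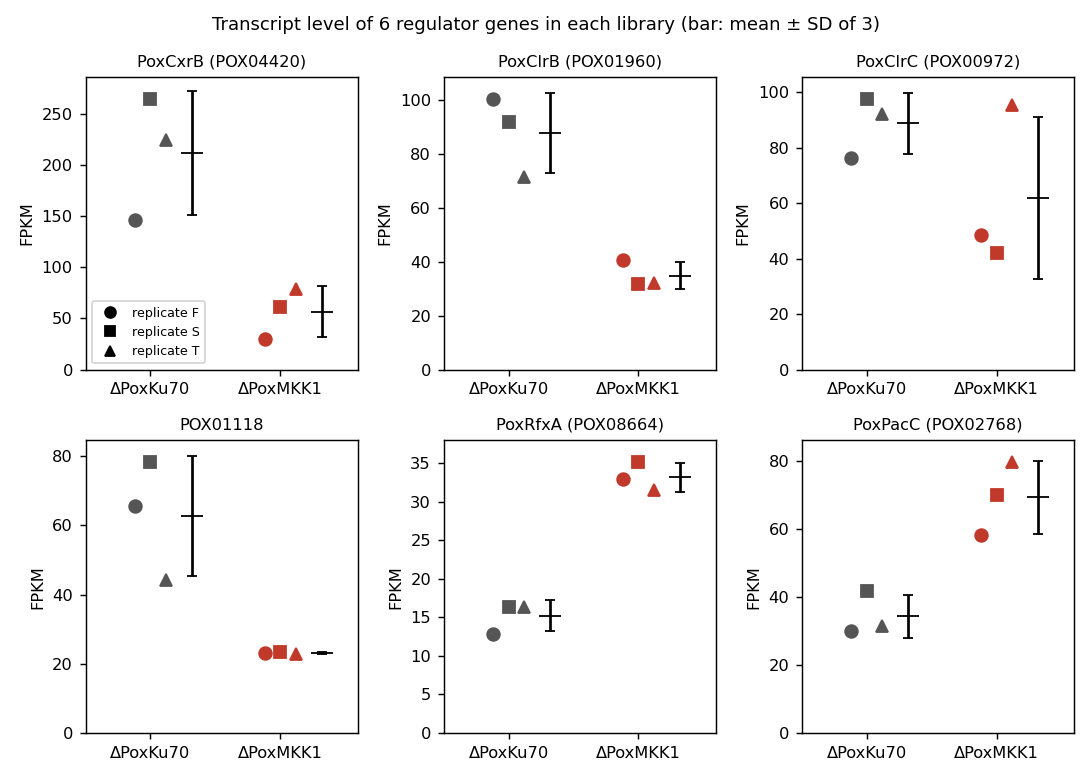
FPKM (vertical axes, each from 0) of the 6 TF genes in each library, with circles, squares and triangles for replicates F, S and T, grey for ΔPoxKu70 and red for ΔPoxMKK1, and bars for the mean ± SD of 3 libraries. The strains are apart for 5 genes, and 1 ΔPoxMKK1 library of PoxClrC, replicate T at 95.3, lies among the ΔPoxKu70 libraries.

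*PoxCxrB* encodes a C2H2 zinc finger protein on which full activity of cellulase and xylanase genes in *P. oxalicum* depends. Its FPKM was 146, 264 and 225 in Δ*PoxKu70* and 29.4, 61.4 and 78.4 in Δ*PoxMKK1*. Even the highest mutant library stayed below the lowest control library, by 1.86-fold, and replicate F was the lowest library of both strains. The means were 212 ± 60.5 and 56.4 ± 24.9 FPKM (SD, n = 3), and the log2 fold change was -1.97 (standard error 0.375), or 3.91-fold lower in the mutant. This was the largest difference among the 6 genes.

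*PoxClrB* encodes a Zn2Cys6 protein and is the cellulase activator of this group. In Δ*PoxKu70* its FPKM was 101, 91.8 and 71.5. In Δ*PoxMKK1* it was 40.6, 31.7 and 32.2, and the lowest control library was 1.76-fold above the highest mutant library. Its log2 fold change was -1.40 (standard error 0.173), or 2.64-fold lower in the mutant. Unlike *PoxCxrB*, it was highest in replicate F of both strains.

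*PoxClrC* was named together with *PoxClrB* by the study for RT-qPCR and is known in *P. oxalicum* as a regulator of cellulase production. Its FPKM was 76.3, 97.7 and 92.4 in Δ*PoxKu70* and 48.5, 41.9 and 95.3 in Δ*PoxMKK1*. Mutant replicates F and S were below every control library, whereas mutant replicate T was above replicates F and T of the control. The log2 fold change was -0.58, with a 95% interval from -1.29 to 0.12, and edgeR's quasi-likelihood test gave an adjusted p of 0.15. The interval includes both no change and a fall of more than 2-fold. Replicate T of Δ*PoxMKK1* decided it, since without that library the log2 fold change was -1.03 (adjusted p = 0.00351 in edgeR's test), past both thresholds. With any other library left out, the estimate lay between -0.67 and -0.37 and was not called.

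*POX01118* encodes a Zn2Cys6 protein that the study counts among known regulators of enzyme production. Its FPKM was 65.8, 78.3 and 44.1 in Δ*PoxKu70* and 23.2, 23.3 and 22.7 in Δ*PoxMKK1*. The mutant libraries were nearly level, while the control libraries differed by up to 1.77-fold. The gap between the closest libraries of the strains was 1.90-fold, and the log2 fold change was -1.51 (standard error 0.211), or 2.85-fold lower in the mutant.

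The remaining genes, *PoxRfxA* and *PoxPacC*, were higher in Δ*PoxMKK1*. *PoxRfxA* has an RFX DNA-binding domain, and its FPKM was 12.8, 16.4 and 16.3 in Δ*PoxKu70* and 32.9, 35.1 and 31.4 in Δ*PoxMKK1*. It had the widest gap between closest libraries of the 6 genes, 1.92-fold, and the log2 fold change was 1.07 (standard error 0.114), or 2.09-fold higher. *PoxPacC* is the C2H2 zinc finger regulator of the response to ambient pH, known from *Aspergillus* as active at alkaline pH. Its FPKM was 30.1, 41.7 and 31.4 in Δ*PoxKu70* and 58.4, 70.0 and 79.8 in Δ*PoxMKK1*. Its log2 fold change of 0.95 (standard error 0.17), or 1.93-fold higher, lay just under the fold minimum of 1, and that of *PoxRfxA* just above it.

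These 2 genes lay so close to the fold minimum that leaving out 1 library or changing a setting could move them across it. The log2 fold change of *PoxRfxA* was 0.97 when replicate F of Δ*PoxKu70* was dropped and 0.96 after correction for gene length, and it was called in neither case. *PoxPacC* passed at 1.06 without replicate F of Δ*PoxMKK1*, at 1.11 without replicate S of Δ*PoxKu70*, at 1.01 when scaled by library size without TMM, and at 1.01 by limma on log2(FPKM + 0.5). *PoxCxrB*, *PoxClrB* and *POX01118* were called under every setting tried, with log2 fold changes from -2.27 to -1.66, from -1.56 to -1.28 and from -1.74 to -1.32.

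**Figure D2:**
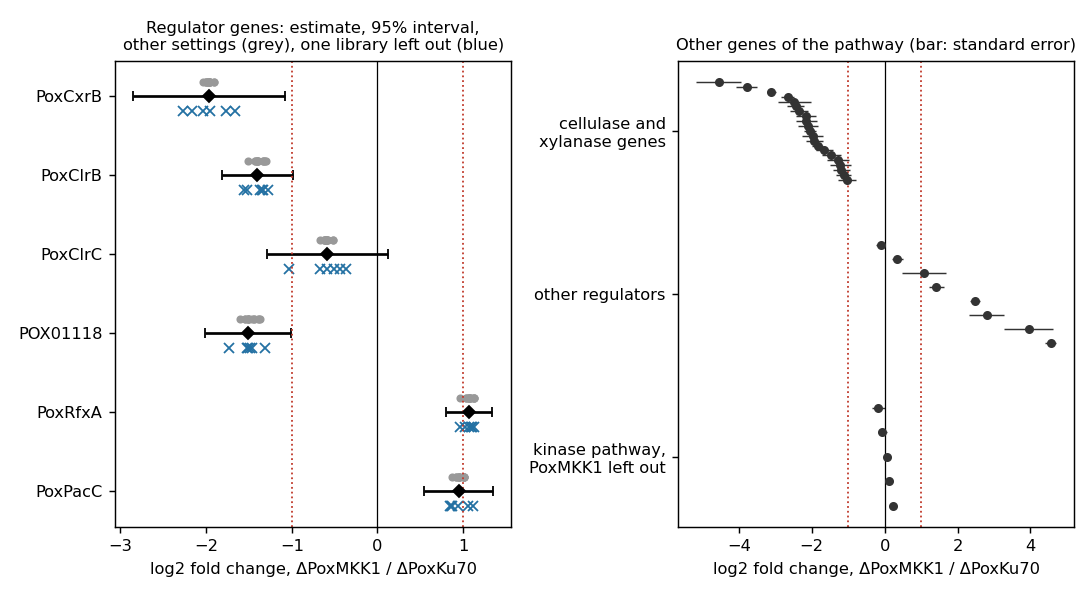
Log2 fold changes of ΔPoxMKK1 over ΔPoxKu70, with dotted lines at the fold minimum of -1 and 1. Left, the 6 TF genes with the edgeR estimate and 95% interval in black, other settings in grey and 1 library left out in blue, where PoxClrC reaches -1.03 only without 1 library. Right, other genes followed, with standard errors. The 21 enzyme genes lie from -4.55 to -1.04, and the 5 genes followed for the kinase pathway and its binding partners from -0.17 to 0.22.

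The order of the levels differed between the strains. On FPKM, which is per length, *PoxCxrB* was the most abundant of the 6 in Δ*PoxKu70*, above 92.0% of all genes, and its 3 libraries did not overlap with those of *PoxClrC*, the next in order. *PoxClrC*, *PoxClrB* and *POX01118* followed at means of 88.8, 88.0 and 62.7, where each neighbouring pair overlapped. *PoxPacC* and *PoxRfxA* came last at 34.4 and 15.2, each apart from its neighbour. In Δ*PoxMKK1*, *PoxPacC* had the highest mean at 69.4, followed by *PoxClrC* at 61.9, *PoxCxrB* at 56.4, *PoxClrB* at 34.8, *PoxRfxA* at 33.1 and *POX01118* at 23.1. There only *PoxRfxA* and *POX01118* did not overlap as neighbours, so most of this order is within the spread of the libraries.

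Ratios of FPKM within a library do not depend on how libraries are scaled to each other. The ratio of *PoxPacC* to *PoxCxrB* was 0.207, 0.158 and 0.140 in Δ*PoxKu70* and 1.98, 1.14 and 1.02 in Δ*PoxMKK1*. The pH regulator thus went from well below the cellulase and xylanase activator to at or above it in every mutant library. The ratio of *PoxRfxA* to *PoxClrB* was 0.128 to 0.228 in Δ*PoxKu70* and 0.810 to 1.11 in Δ*PoxMKK1*, again without overlap. These genes were chosen with their opposite directions known, so the separation of such ratios is a description.

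Among genes of 1 direction, some ratios were alike in the strains and others were not. The ratio of *POX01118* to *PoxClrB* was 0.708 ± 0.127 (SD, n = 3) in Δ*PoxKu70* and 0.670 ± 0.0853 (SD, n = 3) in Δ*PoxMKK1*, with overlapping libraries. The ratio of *PoxRfxA* to *PoxPacC* was 0.446 ± 0.065 and 0.486 ± 0.0852 (SD, n = 3). The ratio of *PoxCxrB* to *PoxClrB* was 1.45, 2.88 and 3.14 in Δ*PoxKu70* and 0.726, 1.93 and 2.43 in Δ*PoxMKK1*. The libraries of the strains overlapped in this ratio. Taken as unpaired, a steeper difference of *PoxCxrB* than of *PoxClrB* thus does not stand out from the spread. Within each of the letters F, S and T the ratio was lower in Δ*PoxMKK1*, but whether the letters pair the libraries is not known. The ratio of *PoxCxrB* to *PoxClrC* did separate the strains, at 1.91 to 2.71 in Δ*PoxKu70* and 0.607 to 1.46 in Δ*PoxMKK1*.

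**Figure D3:**
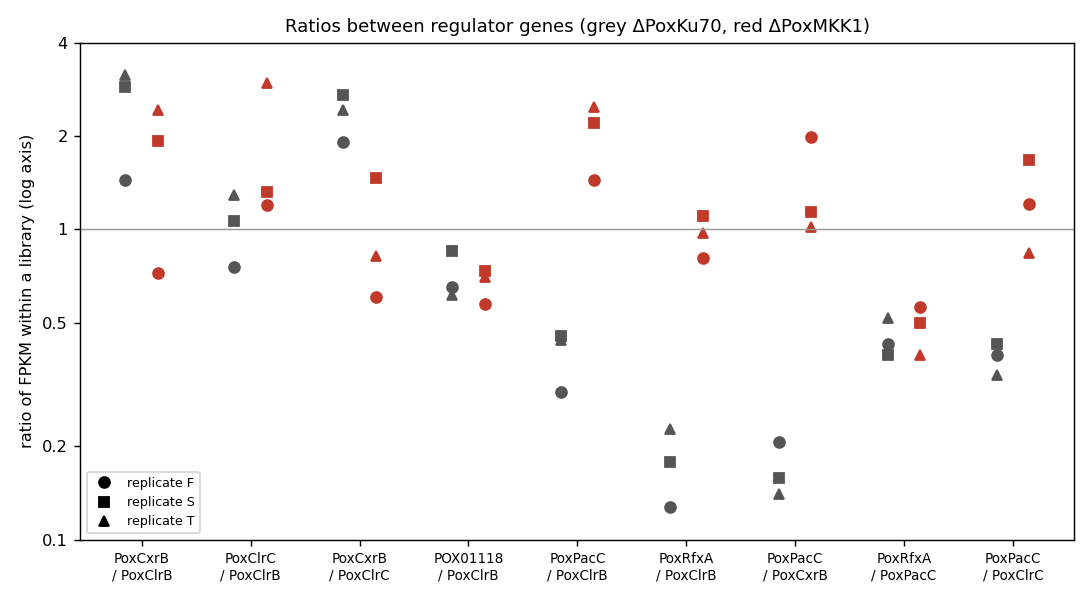
Ratio of FPKM between 2 TF genes within each library on a log axis, with grey for ΔPoxKu70, red for ΔPoxMKK1, and circles, squares and triangles for replicates F, S and T. PoxPacC over PoxCxrB moves from 0.140 to 0.207 in the control to 1.02 to 1.98 in the mutant, whereas POX01118 over PoxClrB overlaps.

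The 6 genes differed widely in their spread within a strain. Over the 36 values the expected counts ran from 371 to 3388, so counting error was small. For *PoxCxrB* in Δ*PoxMKK1* the coefficient of variation of FPKM was 44.1%, where counting error alone would give 4.0%. The SD of its log2(FPKM + 0.5) there, 0.73, was larger than that of 99.1% of the tested genes, for which the median was 0.13. *PoxClrC* came close at 0.63, above 98.5% of genes, owing to the high replicate T. At the other end, *POX01118* had an SD of 0.02 in Δ*PoxMKK1*, with 2.09% of genes below it, but of 0.42 in Δ*PoxKu70*, above 86.6% of genes. *PoxClrB*, *PoxRfxA* and *PoxPacC* had SDs of 0.08 to 0.25 in the 2 strains.

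*PoxCxrB* and *PoxClrB* deviated in different libraries. On log2(FPKM + 0.5), *PoxCxrB* in replicate F lay below its strain mean by 0.49 in Δ*PoxKu70* and by 0.81 in Δ*PoxMKK1*, the lowest library of each strain. *PoxClrB* in replicate F lay above its strain mean by 0.21 and 0.23, the highest library of each strain. *PoxPacC* was lowest in replicate F of both strains too, by 0.17 and 0.23 below its strain mean. *POX01118* followed *PoxClrB* in being lowest in replicate T of Δ*PoxKu70*, where they lay 0.46 and 0.28 below their strain means.

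The 21 cellulase and xylanase genes followed here, a selection from those the study names, were all lower in Δ*PoxMKK1*. Their control by the 6 TF genes was not tested. All 21 genes of this list, 1 cellobiohydrolase, 7 endoglucanase, 5 β-glucosidase, 6 xylanase and 2 lytic polysaccharide monooxygenase genes, passed edgeR's test with lower levels, against 8.93% of all tested genes in that direction. Their median log2 fold change was -2.05, against 0.01 over all tested genes. All but *POX08484* were taken from the list that the study chose on these libraries, so this count is not independent evidence of its direction. *POX08484*, a xylanase gene of the study's RT-qPCR, stood at -1.04 (adjusted p = 0.0129 in edgeR's test), close to the fold minimum. It fell short at -0.87 when replicate S of Δ*PoxMKK1* was left out, and at -0.97 and -0.93 when replicate F or S of Δ*PoxKu70* was. It also fell short at -0.97 with library sizes alone, and at -0.98 both by limma with each pseudocount and on the log2 ratio of mean FPKM. Nor did it pass the stricter adjusted p of 0.01. The summed FPKM of the 21 genes was 18416, 18353 and 13202 in Δ*PoxKu70* and 6689, 3888 and 5134 in Δ*PoxMKK1*. Averaged over these genes, the deviation from the strain mean was highest in replicate F of Δ*PoxMKK1*, at 0.30, where *PoxClrB* was also highest and *PoxCxrB* lowest. In Δ*PoxKu70* it was lowest in replicate T, at -0.34, as it was for *PoxClrB* and *POX01118*. The mean deviation of the enzyme genes was highest there in replicate S, at 0.23. In that library *PoxCxrB* was also highest, at 0.36, and *PoxClrB*, at 0.08, was not.

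**Figure D4:**
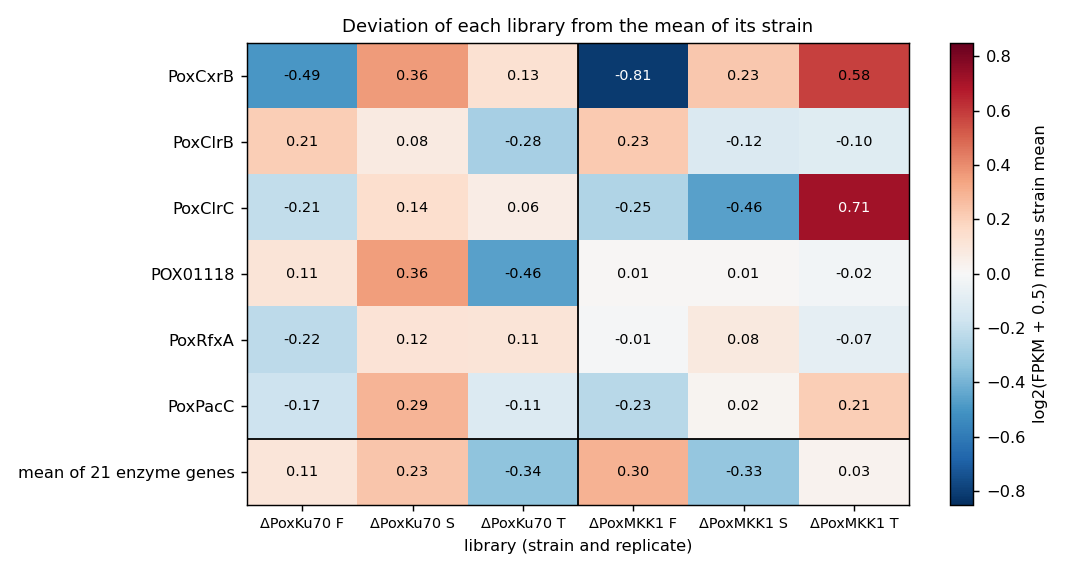
Deviation of log2(FPKM + 0.5) of each library (columns) from the mean of its strain for the 6 TF genes and the mean of 21 cellulase and xylanase genes (rows), with red above and blue below the mean. PoxCxrB is at -0.49 and -0.81 in replicate F of the strains, where PoxClrB is at 0.21 and 0.23, and PoxClrC is at 0.71 in replicate T of ΔPoxMKK1.

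For the kinase pathway and proteins that bind its MAP kinase, 6 genes were followed, and only the deleted *PoxMKK1* passed edgeR's threshold. For the Ste11 homologue *POX01292*, the kinase above PoxMKK1, the log2 fold change was 0.13 with a 95% interval from -0.10 to 0.35. For *POX05503*, homologue of the adaptor Ste50, it was -0.06 with an interval from -0.34 to 0.22. *POX06496*, *POX04853* and *POX07588* encode proteins that bind PoxMK1, the MAP kinase for which PoxMKK1 was screened as a partner. Their log2 fold changes were -0.17, 0.22 and 0.06. The study equates *POX06496* with Hog1, and PoxMK1 itself was not among the genes followed, so the cascade was not covered as a whole. The upper and lower bounds of the interval of *POX06496*, the widest of those given, were 0.23 and -0.58, so a change of the size seen for *PoxClrB* lay outside it.

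Other regulators of enzyme genes and of development were followed as well. Of 8 such genes, 5 passed the threshold with higher levels in Δ*PoxMKK1*, against 10.8% of all tested genes in that direction. None passed with lower levels, and 3 did not pass. The 5 that passed are among the TF genes that the study listed from these same libraries, so nothing is read from this count. *PoxAmyR* (*POX03890*), the activator of amylase genes, had an FPKM of 29.0, 24.0 and 22.5 in Δ*PoxKu70* and of 23.7, 24.2 and 25.1 in Δ*PoxMKK1*, and with a log2 fold change of -0.11 (standard error 0.121) it did not pass. The 3 conidiation regulators *PoxBrlA*, *PoxAbaA* and *PoxFlbD*, which the study describes as known activators of conidiation, all passed. They were 15.4-fold, 23.5-fold and 2.67-fold higher in Δ*PoxMKK1*. The summed FPKM of these 3 genes ran from 127 to 256 in Δ*PoxKu70* and from 915 to 996 in Δ*PoxMKK1*. Most of the sum in Δ*PoxKu70* was *PoxFlbD*, at 165, 117 and 211. The part of this shift in the levels of the 6 TF genes was not tested. Within Δ*PoxMKK1* that sum differed by 1.09-fold between libraries, and *PoxCxrB* differed by 2.66-fold. In the control strain the sum was lowest in replicate S, at 127, and highest in replicate T, at 256. *PoxBrlA* alone differed by 7.85-fold in the control, from 5.38 in replicate S to 42.2 in replicate T. *PoxCxrB* differed by 1.82-fold in the control, and was highest in replicate S but lowest in replicate F. A link between these levels across libraries was not tested. Spread within a strain does not bear on the difference between the strains.

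Among the 38 TF genes that the study listed from these libraries, the 5 cellulase-linked ones were spread over the lower and middle places by log2 fold change. Counted from the lowest, *PoxCxrB* ranked 5, *POX01118* ranked 9, *PoxClrB* ranked 11, *PoxPacC* ranked 19 and *PoxRfxA* ranked 22. The ends of the list were *POX03873* at -2.93 and *PoxAbaA* at 4.55. Of all 38, 17 were called lower and 16 higher, where 8.93% and 10.8% of all tested genes were, and since the study chose the list on this contrast nothing is read from these counts. By protein class, 6 of the 10 C2H2 zinc finger genes in the list were called lower and 2 higher, and 6 of the 15 Zn2Cys6 genes were called lower and 8 higher. *PoxCxrB* and *PoxPacC* thus share the C2H2 class and had opposite directions.

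The genes most like each TF gene were found by Pearson's r of log2(FPKM + 0.5) over the 6 libraries, among the 7025 genes whose mean FPKM reached 10. With 6 libraries in 2 strains, r mostly reflects the strain difference, and it ignores its size. Counts of genes with an r of at least 0.95 leave out the 6 TF genes themselves and so run over 7019 genes. For *PoxClrB* there were 566, led by *POX05379* and by *POX02345*, an α-galactosidase gene (both 1.000). For *POX01118* there were 476, led by *POX09174* and *POX08418* (0.999 and 0.998), for *PoxRfxA* 758, led by *POX09666* and *POX02279* (both 0.999), and for *PoxPacC* 224, led by *POX01263* and *POX08557* (0.999 and 0.997). *PoxCxrB* had 119 such genes, led by *POX02612* and *POX04446* (both 0.995), whose own log2 fold changes were only -0.36 and -0.71. *PoxClrC* had just 5, led by *POX02699* (0.984) and *POX08369* (0.968), and *POX02699* shares its high replicate T in Δ*PoxMKK1*, with an FPKM of 55.7 against 40.4 and 38.3 in replicates F and S. Among the 6 genes themselves, *PoxClrB* was most like *POX01118* (r = 0.969).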

How the data were processed

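The BGISEQ-500 platform was used for mycelial mRNA of both strains, and libraries were grouped by the strain and replicate letters in the sample labels. Per the file headers, the authors deposited for each gene an expected count, an estimated and unnormalized number of reads, and an FPKM value normalized by the authors for length and depth. The submitters' processing notes name BWA 0.7.10-r789, Bowtie2 2.1.0, RSEM 1.2.12 and DESeq2 without their roles, and the reads were aligned to the HP7-1 genome. Use of strand is not given in the sources used here, so reads of overlapping genes cannot be told apart. None of the 6 genes had a fractional count. A RefSeq table of HP7-1 shared 0 of 9834 identifiers, so no positions are given.

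After rounding of the expected counts, genes were filtered (filterByExpr), scaled (TMM) and tested by glmQLFTest of edgeR 4.0.16 under R 4.3.3, with Benjamini-Hochberg adjustment over 8749 genes. The fold minimum is the study's, and the adjusted p below 0.05 replaces its probability criterion, which names no tool. A standard error is the absolute log2 fold change over the root of F. Alternatives were DESeq2 1.42.0, DESeq2 size factors, library sizes alone, removal of length trends, no filter, a mean FPKM of at least 5, limma 3.58.1 on log2(FPKM + 0.5) and with pseudocounts of 0.1 and 1, no fold minimum, a stricter adjusted p of 0.01, the log2 ratio of mean FPKM values, a replicate block, and each library left out. The edgeR, DESeq2 and limma steps were tested on simulated counts. Scripts used Python 3.11.15.

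The 6 genes and the lists of enzyme, kinase pathway, conidiation and other regulator genes, taken from the paper, were chosen with earlier results of these data known. Named are these genes, the 2 most like each of the 6, and their numbered neighbours. Replicates are called biological repeats by the study, and the p-values measure only the spread between them.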

Additional observations from a re-analysis of the deposited data

How the results depend on the processing

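Over 44 named genes and 19 alternative settings, 808 of 836 log2 fold changes kept their direction and their side of the threshold, 14 were no longer called and 9 became called. The signs that turned belonged to genes near 0 that were never called. *PoxAmyR* ran from -0.22 to 0.0129 with 1 library left out, the latter when replicate F of Δ*PoxKu70* was dropped. *POX05503* ran from -0.17 to 0.0089 in the same way, the latter when replicate S of Δ*PoxMKK1* was dropped, and stood at 0.0043 with library sizes alone and at 0.0023 on the ratio of mean FPKM. *POX07588* was at -0.0442 with length trends removed. The count of called genes was 1728 and rose to 4044 without the fold minimum, since fewer conditions were then applied, and the other settings gave 1408 to 1865. Of the 6 TF genes, 3 to 5 were called, the lowest with length trends removed and without replicate F of Δ*PoxKu70*. The 21 enzyme genes kept 18 to 21 calls.

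The letters F, S and T did not settle whether the libraries were paired. Across genes, deviations from the strain means correlated at 0.35, 0.03 and 0.14 between libraries of the same letter. Replicates F and S of Δ*PoxMKK1* correlated best with the control library of their own letter. For replicate S the margin was small, at 0.033 against 0.028 with replicate F of Δ*PoxKu70*. Replicate T of Δ*PoxMKK1* correlated best with replicate S of Δ*PoxKu70*, at 0.17. With a replicate block, 1739 genes were called and the same 4 TF genes among them. The log2 fold change of *PoxCxrB* was then -2.04 with a standard error of 0.185, down from 0.375. With 3 libraries per strain, the interval of *PoxClrC* was too wide to place it on either side of the fold minimum.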

Other observations

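The numbers in the gene identifiers appear to follow the annotation, so the genes numbered 1 to 3 below and above each TF gene were looked at, without a position in the genome to go with them. Of these 36 genes 29 were tested, and 5 were called, 3 lower and 2 higher in Δ*PoxMKK1*. That is 17.2%, near the 19.8% of all tested genes. *POX01961*, numbered next after *PoxClrB* and listed by the study as a β-mannosidase gene, had an FPKM of 432, 428 and 287 in replicates F, S, T of Δ*PoxKu70* and of 173, 109 and 129 in Δ*PoxMKK1*, and its log2 fold change was -1.55 (standard error 0.243). *POX01117*, numbered next before *POX01118* and listed as a feruloyl esterase gene, had 19.5, 29.8 and 13.7 against 7.24, 4.42 and 5.03, a log2 fold change of -1.98 (standard error 0.327). Both thus had the direction of the TF gene beside them in number, while *POX01959*, numbered next before *PoxClrB*, had a log2 fold change of 0.30 that was not called. *POX02769*, next after *PoxPacC*, had 6.09, 6.22 and 5.78 against 12.4, 14.0 and 14.6, a log2 fold change of 1.12 (standard error 0.109). The numbers next to *PoxCxrB*, *PoxRfxA* and *PoxClrC* held no called gene. The other called ones were *POX01120*, with a log2 fold change of -1.42, and *POX00970*, numbered shortly before *PoxClrC*, whose FPKM was 25.2, 33.3 and 32.7 in Δ*PoxMKK1* and 0.06, 0.00 and 0.13 in Δ*PoxKu70*.

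The actin gene used as the reference for RT-qPCR is numbered *POX09248* in the methods and *POX09428* in the list of primers. Their FPKM was 26.2 to 30.8 and 2296 to 2706 over the 6 libraries, and their log2 fold changes were -0.07 and -0.15, neither of them called.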
